A study of Homo sapiens with 24 samples.

Results

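The mRNA levels of 8 genes that write, copy or oxidise DNA methylation were followed across 11 groups of HCT116 cells, an established human colorectal carcinoma line: DNMT1, UHRF1, DNMT3A, DNMT3B, DNMT3L, TET1, TET2 and TET3. The genes were chosen with earlier results of these data known, and their probe sets by gene symbol alone. Every probe set whose single symbol in the array's probe annotation was one of these names was taken, which gave 15 of the 54675 probe sets on the Affymetrix HG-U133 Plus 2.0 array. The tests took the 13 whose log2 value was 5 or more on 2 or more arrays, and the remaining 2, TET1 214862_x_at and TET2 235461_at, are described apart. The cells were exposed for 72 h to a compound in DMSO, or to DMSO alone, so the vehicle was common to all groups. The treated groups, of 2 arrays each, were decitabine (DAC) at 5 µM and 120 nM, the prodrug G669071 at a higher and a lower dose, the prodrug G668684 at 7 µM and 150 nM, azacitidine (Aza) at 1500 and 150 nM, and the prodrug G669043 at 1500 and 150 nM. DMSO had 4 arrays. Titles of G669071 samples carry the prefix phos, those of G668684 ester and those of G669043 Aza. The doses of G669071 are 63 and 6 µM in the sample titles but 120 and 6 nM in the source names, so they are called higher and lower. Nothing in the labels says that replicates were separate cultures, so the p-values measure the spread between these arrays, which may be technical.

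DNMT1 copies methylation onto the newly made DNA strand behind the replication fork, and UHRF1 recognises hemimethylated CpG sites and brings DNMT1 to them. DNMT3A and DNMT3B set methylation on unmethylated sites, helped in germ cells by the catalytically inactive DNMT3L, and the TET dioxygenases oxidise 5-methylcytosine, which starts its removal. Decitabine and azacitidine are cytidine analogues that, once built into DNA, bind DNA methyltransferases covalently and deplete the DNMT1 protein. The arrays measured mRNA, and neither protein nor methylation was measured here.

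Before the results, features of the arrays that bear on them are given. Array medians lay between 6.46 and 6.58 log2, and no 2 arrays were identical. Replicates correlated at 0.989 to 0.998 within the treated groups. The lowest value was that of 120 nM DAC (0.9886), followed by 150 nM G668684 (0.9935). The DMSO arrays fell into pairs: replicate 1 with 2 and replicate 3 with 4 correlated at 0.996, while across the pairs the correlation was 0.988 to 0.99. The 2 arrays of 120 nM DAC thus agreed no better than DMSO arrays of different pairs. Levels of UHRF1, DNMT3B, TET1 228906_at, TET2 227624_at and TET3 235542_at followed that split, lower in DMSO replicates 1 and 2 than in 3 and 4. DNMT3A 218457_s_at, DNMT3L and TET3 1554641_a_at followed it the other way. The cause of the split was not tested, and those of the 13 probe sets whose call against DMSO changed with the pair used are given below. The pair used also moved the count over all 35146 probe sets tested. At 150 nM G669043 it was 8193 against DMSO replicates 1 and 2, 91 against 3 and 4, and 90 against all 4. At 1500 nM G669043 it was 4185, 3687 and 2453, in the same order. Of 8 epithelial markers, 7 lay above the 90th percentile of all probe sets, among them EPCAM and KRT18, and the eighth, the intestinal cadherin CDH17, had a median of 6.88 log2. Of 6 fibroblast markers 1 (COL1A1), of 5 blood markers 0 and of 6 keratinocyte markers 1 (KRT10) lay above that percentile. Apart from those 2, the medians ran from 4.26 (LUM) to 7.43 log2 (DCN) over the fibroblast markers, from 4.4 (PTPRC) to 8.08 (CD3E) over the blood markers and from 4.67 (KRT14) to 7.26 (KRT5) over the keratinocyte markers. Of the full lists 2, 1 and 1 had a median below the filter value of 5. In such bulk RNA, fewer cells of a kind and less RNA per cell cannot be told apart.

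Promoter windows of 300 bases, 250 before and 50 after each annotated start, were available for 7 of the 8 genes from RefSeq (assembly GRCh38.p14), with more than 1 window where a gene has several starts. They were searched on both strands for TTTCCCGC, TTTCGCGC, TTTGCCGC and TTTGGCGC, letters known as a binding motif of the E2F cell cycle factors, and no other motif was searched. Matches stood in windows of 2 of the 7 genes: the only window of DNMT1, and windows 1 and 2 of UHRF1. Window 3 of UHRF1 held 0. The windows of DNMT3B and TET1, which were also called lower below, held no match. The stretches around the matches are shown 5′ to 3′ on the gene's strand, with the match in capitals. The first lies at chr19:10194934-10195015 on the minus strand, and its match covers bases -2 to 6 around the DNMT1 start. The next 2 lie at chr19:4909427-4909520 and chr19:4909924-4910021 on the plus strand, before different UHRF1 starts, with matches at bases -14 to -7 and -160 to -153.
DNMT1: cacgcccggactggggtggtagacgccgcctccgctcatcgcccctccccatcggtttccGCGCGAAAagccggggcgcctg
UHRF1 first start: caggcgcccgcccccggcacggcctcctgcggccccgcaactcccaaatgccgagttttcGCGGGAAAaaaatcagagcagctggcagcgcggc
UHRF1 second start: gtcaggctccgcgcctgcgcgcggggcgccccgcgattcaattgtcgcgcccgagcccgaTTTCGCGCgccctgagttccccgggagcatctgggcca
In the DNMT1 stretch and at the first UHRF1 start the match reads on the opposite strand. Of 27305 genes with windows, 3.99% held a match, and of the 35116 windows 3.31% did. A match describes letters only, and binding was not measured.

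Across the higher doses, UHRF1, DNMT1 and TET1 mRNA fell with DAC, G669071 and G668684, and DNMT3B fell with DAC and G668684. At 1500 nM Aza TET1 was the only member called as lower, with TET3 235542_at changed by a similar amount but not called. A single DNMT3A probe set, 244428_at, rose in 8 of the 10 treated groups, while the other 2 DNMT3A probe sets passed the test in none of them. DNMT3L, TET2 and TET3 passed in no comparison with DMSO in the fit to all arrays. Calls are those with a Benjamini-Hochberg adjusted p under 0.05 in limma, adjusted over all 35146 probe sets tested, and fold changes are given on the log2 scale as treated minus DMSO with their SE.

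These counts have to be read against the many probe sets that changed in the same groups. At 5 µM DAC 5 of the 13 probe sets were called, 1 higher and 4 lower, against 28.2% of all probe sets, and the median change was -0.16 log2 over the 13 and -0.05 over all. At 7 µM G668684 the count was also 5, 1 higher and 4 lower, with 28.1% of all probe sets called and medians of -0.18 and -0.04. The higher dose of G669071 called 4, 1 higher and 3 lower, with 26.1% of all probe sets and medians of -0.11 and -0.04. At 1500 nM Aza 2 of 13 were called, 1 in each direction, against 14.3%. The remaining calls against DMSO were of DNMT3A 244428_at alone, which is 1 of 13 at 120 nM DAC (19.9% of all probe sets), at the lower dose of G669071 (12.5%), at 150 nM G668684 (18.4%) and at 1500 nM G669043 (6.98%). Aza and G669043 at 150 nM called 0 of 13, against 0.947% and 0.256% of all probe sets, and 1 and 4 of the 13 had an unadjusted p under 0.05 in limma there. As shares, these were 38.5% of members at 5 µM DAC and 7 µM G668684, 30.8% at the higher dose of G669071 and 15.4% at 1500 nM Aza. With only 13 probe sets, some of the same gene, the gaps to the array as a whole do not set the members apart from it. A single call is 7.69% of the 13. Where the arrays of a group are said below to lie wholly above or below DMSO, the share of all probe sets that did so was not counted.

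**Figure D1:**
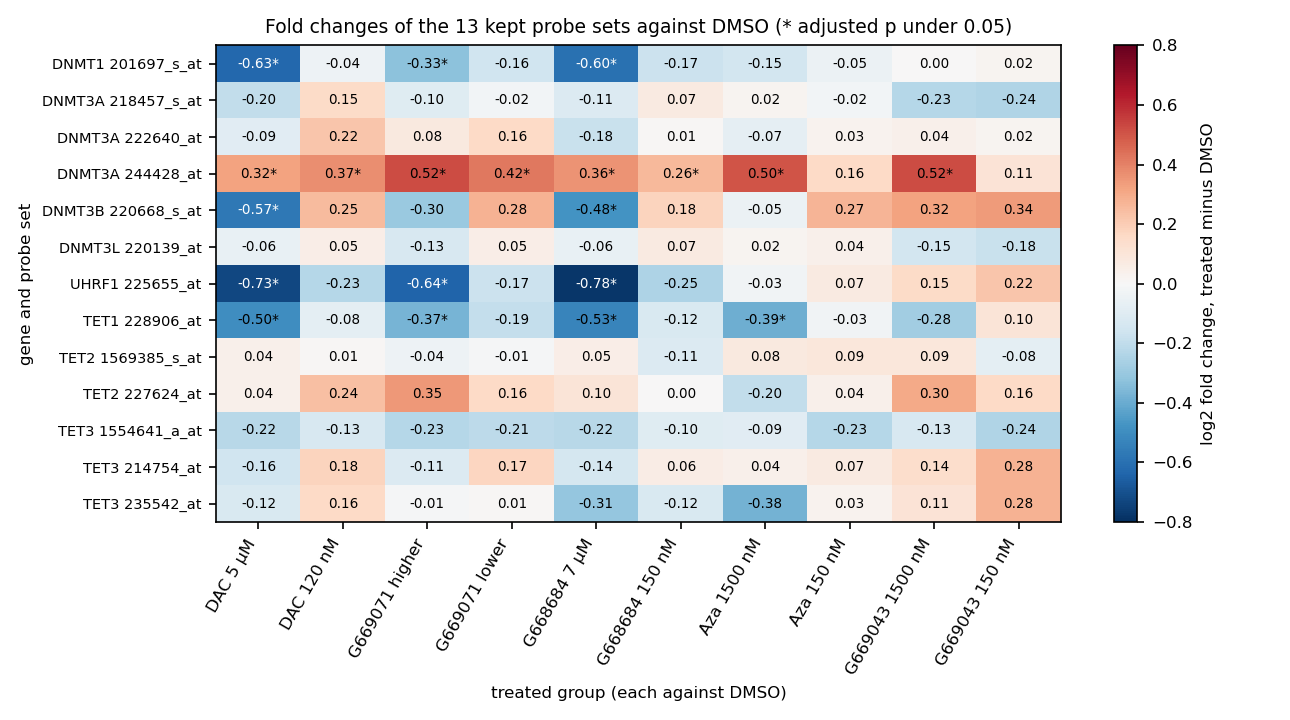
Log2 fold change of each of the 13 tested probe sets (rows) in each treated group against DMSO (columns), from limma, with an asterisk where the adjusted p was under 0.05. The blue cells of DNMT1, DNMT3B, UHRF1 and TET1 lie in the higher doses of DAC, G669071 and G668684, and the red row is DNMT3A 244428_at.

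UHRF1, the hemimethylated-CpG reader, had the largest fall among the 8 genes. Its probe set 225655_at read 10.76 and 10.89 log2 at 5 µM DAC, 10.85 and 10.98 at the higher dose of G669071, and 10.65 and 10.90 at 7 µM G668684, against 11.35, 11.42, 11.79 and 11.65 in DMSO. All 6 treated arrays lay below all 4 DMSO arrays. The changes were -0.73 ± 0.12, -0.64 ± 0.12 and -0.78 ± 0.12 log2, in the same order, with adjusted p = 5.3e-05, 0.00025 and 2.5e-05 in limma. As linear levels they were 0.604, 0.643 and 0.583 of DMSO. At the lower doses of these compounds UHRF1 read 11.17 and 11.48 (120 nM DAC), 11.45 and 11.32 (lower G669071) and 11.19 and 11.42 (150 nM G668684), each group overlapping the DMSO range. None of these passed the test (-0.23, -0.17 and -0.25 log2, adjusted p = 0.2, 0.43 and 0.17 in limma). Against DMSO replicates 3 and 4 alone they did pass, at -0.39, -0.34 and -0.42 log2 with adjusted p = 0.013, 0.036 and 0.0096.

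With Aza and G669043 UHRF1 lay within or above the DMSO range. It read 11.61 and 11.44 at 1500 nM Aza, 11.60 and 11.64 at 150 nM Aza, 11.58 and 11.82 at 1500 nM G669043, and 11.83 and 11.72 at 150 nM G669043. The last was the highest of the 11 group means, 11.78 ± 0.078 (SD, n = 2), and DMSO lay at 11.55 ± 0.204 (SD, n = 4). In the order of group means every step between neighbours was below the pooled SD of 0.153 except a step of 0.39, which set the 3 higher doses of DAC, G669071 and G668684 below the other 8 groups. At 150 nM G669043 the difference from DMSO was 0.22 ± 0.12 (adjusted p = 0.33 in limma), and against DMSO replicates 1 and 2 alone it was 0.39 (adjusted p = 0.018). Against that pair 8193 of all 35146 probe sets were called there, and 90 in the fit to all arrays.

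**Figure D2:**
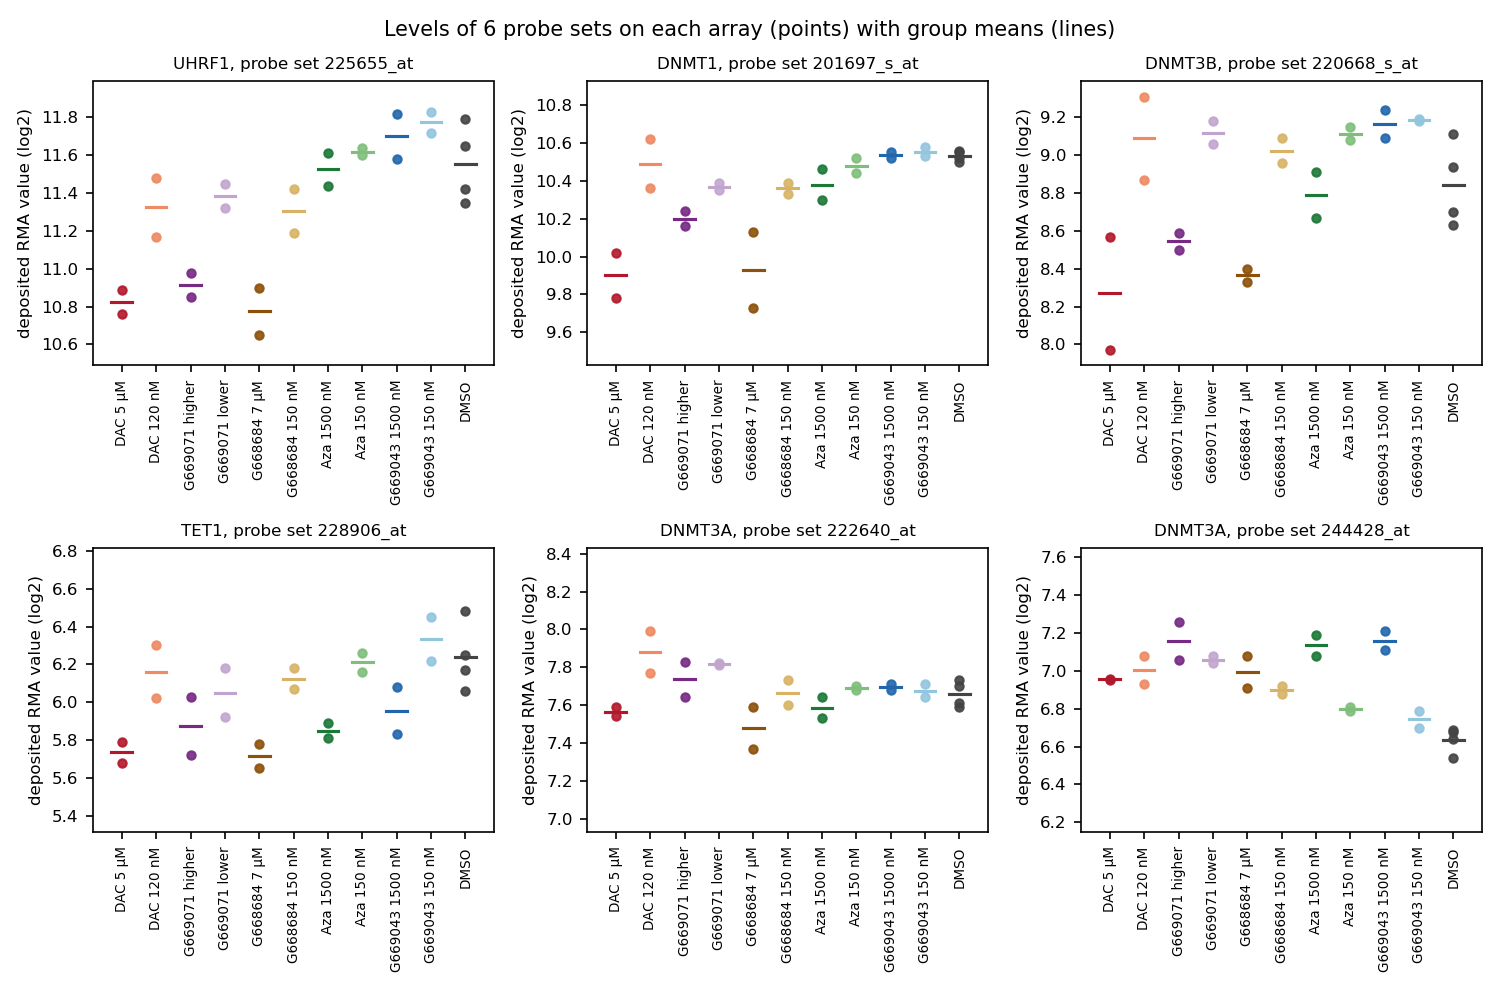
Log2 values of 6 probe sets on every array (points) with group means (lines), each panel spanning 1.5 log2 units, treated groups from the left and DMSO at the right. UHRF1 at the higher doses of DAC, G669071 and G668684 lies between 10.65 and 10.98, below all DMSO arrays, and DNMT3A 244428_at lies above all DMSO arrays in each treated group.

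DNMT1, the maintenance methyltransferase and the protein these drugs act on, fell in the same 3 groups. Probe set 201697_s_at read 9.78 and 10.02 log2 at 5 µM DAC, 10.16 and 10.24 at the higher dose of G669071, and 9.73 and 10.13 at 7 µM G668684, against 10.55, 10.52, 10.56 and 10.50 in DMSO. The DMSO arrays lay close together here, and all 6 treated arrays lay below them. The changes were -0.63 ± 0.09, -0.33 ± 0.09 and -0.60 ± 0.09 log2, with adjusted p = 2.1e-05, 0.01 and 3.8e-05 in limma, or 0.645, 0.794 and 0.659 of the DMSO level. The call for G669071 was lost without its replicate 1 (-0.29, adjusted p = 0.12). At the lower doses DNMT1 read 10.62 and 10.36 (120 nM DAC), 10.35 and 10.39 (lower G669071), and 10.33 and 10.39 (150 nM G668684). The last 2 pairs lay below every DMSO array, but at -0.16 and -0.17 log2 they did not pass (adjusted p = 0.32 and 0.25 in limma).

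Aza at 1500 nM gave DNMT1 readings of 10.46 and 10.30, also below every DMSO array and not called (-0.15 ± 0.09, adjusted p = 0.34 in limma). Aza at 150 nM gave 10.52 and 10.44, G669043 at 1500 nM 10.52 and 10.55, and G669043 at 150 nM 10.58 and 10.53, all overlapping DMSO. In the order of DNMT1 group means, 2 steps exceeded the pooled SD of 0.114: 0.16 between 150 nM G668684 and the higher dose of G669071, and 0.27 between that group and 7 µM G668684. All other neighbours differed by less than that SD.

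The partners of maintenance methylation were described as 11 genes: the DNMT1 regulators and recruiters UHRF2, USP7, DMAP1, PCNA, PCLAF, LIG1, KDM1A and SETD7, and the remodelling genes HELLS, CDCA7 and ZBTB24. The changes were largest for CDCA7, which directs the HELLS remodeller to chromatin: it averaged 9.94 log2 at 5 µM DAC, against 11.54 in DMSO (-1.60 ± 0.08, adjusted p = 4.9e-12 in limma). HELLS, the remodeller itself, averaged 8.84 at 5 µM DAC, against 10.16 in DMSO (-1.32 ± 0.21, adjusted p = 6e-05). PCLAF, a PCNA-binding protein through which DNMT1 is recruited, and LIG1, the replicative DNA ligase, fell by 0.54 and 0.51. In all, 6 of 11 fell and 2 rose at 5 µM DAC, with a median of -0.44 log2 against -0.04 over all 18055 genes, of which 31.3% were called. The counts were 6 lower and 2 higher at the higher dose of G669071 (28.8% of all genes called) and 6 lower and 1 higher at 7 µM G668684 (31.3%), with medians of -0.31 and -0.46.

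CDCA7 and HELLS fell at lower doses as well, where UHRF1 and DNMT1 were not called. At 120 nM DAC CDCA7 averaged 10.81 log2, against 11.54 in DMSO (-0.73 ± 0.08, adjusted p = 1.1e-06 in limma). HELLS averaged 9.11 at 120 nM DAC, against 10.16 in DMSO (-1.05 ± 0.21, adjusted p = 0.0011). At 1500 nM Aza they fell by 0.40 and 0.67, and at 1500 nM G669043 CDCA7 fell by 0.40 while HELLS changed by -0.07 (adjusted p = 0.91 in limma). DMAP1, which binds the DNMT1 amino terminus, moved the other way: it averaged 7.91 at 1500 nM Aza, against 7.48 in DMSO (0.42 ± 0.09, adjusted p = 0.0029), and rose by 0.37 at 1500 nM G669043. Aza and G669043 at 150 nM called 0 of the 11 in limma, where 1.22% and 0.371% of all genes were called, and 2 of the 11 had an unadjusted p under 0.05 in each.

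**Figure D3:**
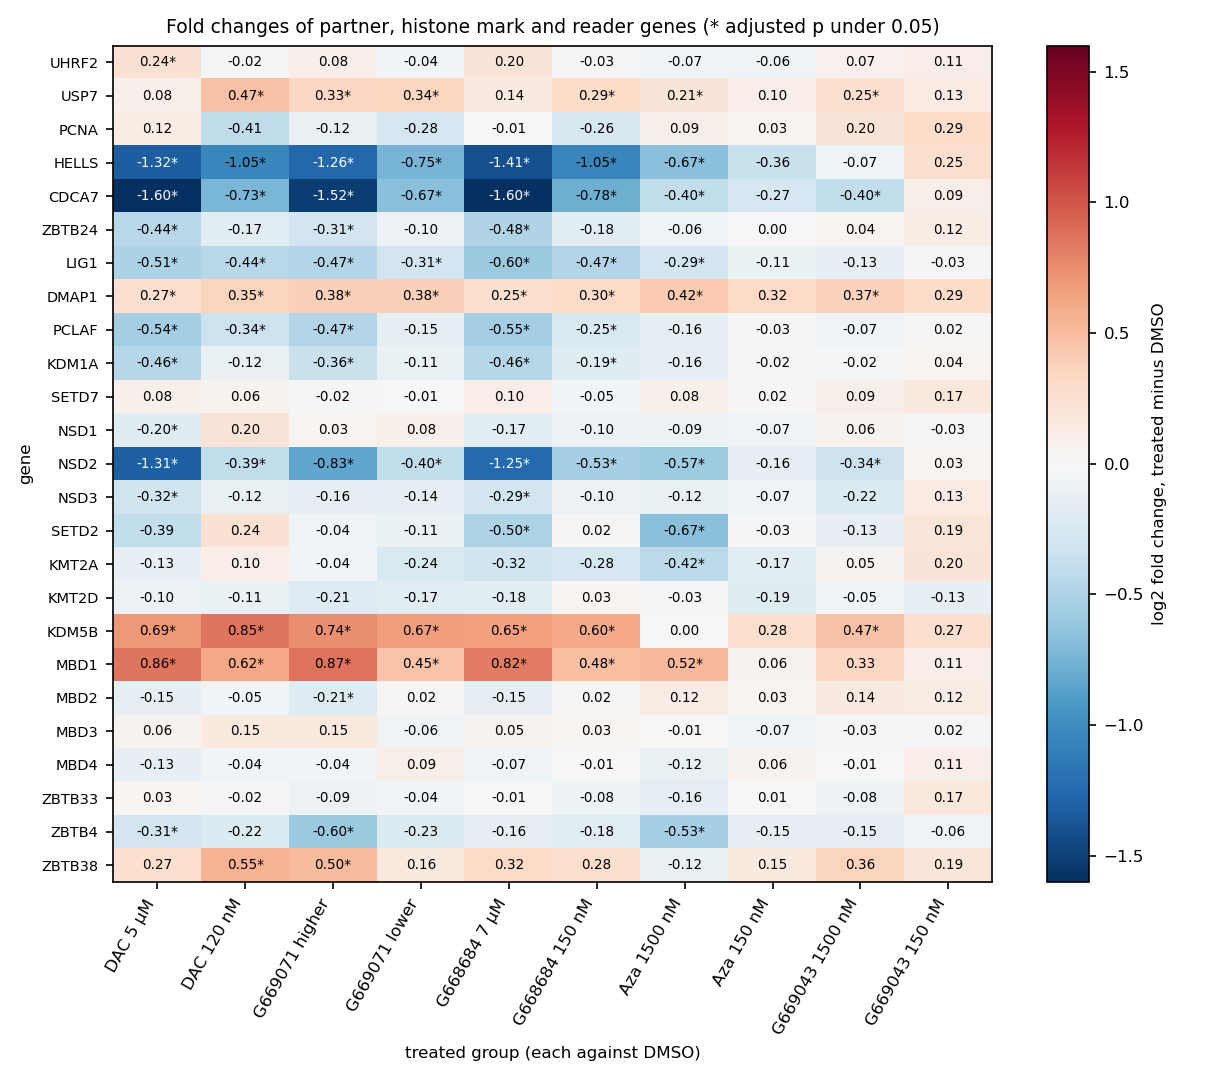
Log2 fold change against DMSO of the lead probe set of 25 genes (rows: 11 maintenance partners, 7 histone mark genes, 7 methyl-CpG readers) in each treated group (columns), with an asterisk where the adjusted p in limma was under 0.05. CDCA7, HELLS and NSD2 are the darkest blue rows at the higher doses, with -1.60, -1.32 and -1.31 at 5 µM DAC, and KDM5B and MBD1 are the red ones.

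Of the de novo enzymes, DNMT3B fell at 2 of the higher doses and had means above DMSO, with no call, at the lower ones. Probe set 220668_s_at read 8.57 and 7.97 log2 at 5 µM DAC, 8.33 and 8.40 at 7 µM G668684, and 8.59 and 8.50 at the higher dose of G669071, against 8.63, 8.70, 9.11 and 8.94 in DMSO. Each of these 3 groups lay below all DMSO arrays. The changes at 5 µM DAC and 7 µM G668684 were -0.57 ± 0.15 and -0.48 ± 0.15 (adjusted p = 0.005 and 0.017 in limma), or 0.671 and 0.717 of the DMSO level. With G669071 the difference was -0.30 ± 0.15 and did not pass (adjusted p = 0.15), except against DMSO replicates 3 and 4 alone (-0.48, adjusted p = 0.023). The DAC change rested on 1 array, and without its replicate 2 it was -0.27 (adjusted p = 0.31). The G668684 change was not called without its replicate 1 (-0.45, adjusted p = 0.12), without its replicate 2 (-0.51, adjusted p = 0.069) or against DMSO replicates 1 and 2 alone (-0.30, adjusted p = 0.13).

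Elsewhere DNMT3B read 8.87 and 9.31 at 120 nM DAC, 9.06 and 9.18 at the lower dose of G669071, and 8.96 and 9.09 at 150 nM G668684. It read 8.91 and 8.67 at 1500 nM Aza, 9.08 and 9.15 at 150 nM Aza, 9.09 and 9.24 at 1500 nM G669043, and 9.18 and 9.19 at 150 nM G669043. Only the last lay wholly above DMSO, by 0.34 ± 0.15 (adjusted p = 0.26 in limma), and no DNMT3B rise passed in the fit to all arrays. Against DMSO replicates 1 and 2 alone DNMT3B passed as higher in 3 groups, by 0.52 at 150 nM G669043, 0.50 at 1500 nM G669043 and 0.42 at 120 nM DAC (adjusted p = 0.02, 0.036 and 0.049). In the order of DNMT3B group means a single step, 0.245 between 1500 nM Aza and the higher dose of G669071, exceeded the pooled SD of 0.194.

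DNMT3A, the second de novo enzyme, was read by 3 probe sets that disagreed. Probe set 244428_at read 6.95 and 6.96 log2 at 5 µM DAC, 7.08 and 6.93 at 120 nM DAC, 7.26 and 7.06 at the higher dose of G669071, 7.08 and 7.04 at its lower dose, and 6.91 and 7.08 at 7 µM G668684. It read 6.88 and 6.92 at 150 nM G668684, 7.19 and 7.08 at 1500 nM Aza, 6.81 and 6.79 at 150 nM Aza, 7.21 and 7.11 at 1500 nM G669043, and 6.79 and 6.70 at 150 nM G669043, against 6.64, 6.69, 6.54 and 6.68 in DMSO. Every treated array stood above every DMSO array, though at 150 nM G669043 only narrowly (6.70 in its replicate 2, against 6.69 in DMSO replicate 2). The 8 called changes ran between 0.26 ± 0.08 at 150 nM G668684 (adjusted p = 0.025 in limma) and 0.52 ± 0.08 at the higher dose of G669071 and at 1500 nM G669043 (adjusted p = 3.9e-05 and 0.00027), or 1.2 to 1.44 times DMSO. Those at 150 nM Aza and G669043 were 0.16 and 0.11 and did not pass (adjusted p = 0.49 for each). The call at 120 nM DAC was lost without its replicate 1 (0.29, adjusted p = 0.072) and that at 7 µM G668684 without its replicate 2 (0.27, adjusted p = 0.066). Against DMSO replicates 1 and 2 alone the change at 150 nM G668684 was 0.24 (adjusted p = 0.081). That call was also lost without its replicate 1 (0.28, adjusted p = 0.11), its replicate 2 (0.24, adjusted p = 0.15) or DMSO replicate 3 (0.23, adjusted p = 0.066).

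The other DNMT3A probe sets gave no such rise. Probe set 222640_at differed from DMSO by between -0.18 and 0.22 log2, with a lowest adjusted p of 0.072 in limma (120 nM DAC). Its arrays read 7.99 and 7.77 there, against 7.73, 7.59, 7.61 and 7.70 in DMSO, so the groups did not overlap, and without 120 nM DAC replicate 2 the difference passed (0.33, adjusted p = 0.03). Probe set 218457_s_at differed by between -0.24 and 0.15, with a lowest adjusted p of 0.22. Against DMSO replicates 1 and 2 alone, 218457_s_at passed at 5 µM DAC, 1500 nM G669043 and 150 nM G669043 (-0.33, -0.37 and -0.38, adjusted p = 0.028, 0.041 and 0.022). Which transcripts or which part of the gene, at chr2:25227874-25342590 in GRCh38.p14, each probe set reads was not determined here. A change of DNMT3A as a gene therefore cannot be stated. DNMT3L, the inactive cofactor, read between 6.80 and 7.26 log2 on all 24 arrays, with differences from DMSO of -0.18 to 0.07 and a lowest adjusted p of 0.36. Against DMSO replicates 1 and 2 alone it passed narrowly at 150 nM G669043 (-0.29, adjusted p = 0.0499).

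Histone marks steer the DNMT3 enzymes: methylation of H3K36, laid down by NSD and SETD2 proteins, recruits them, and methylation of H3K4 keeps them away. Among 7 genes for these marks, NSD2 fell most, averaging 8.27 log2 at 5 µM DAC, against 9.59 in DMSO (-1.31 ± 0.1, adjusted p = 3.3e-09 in limma). It fell by 0.83 at the higher dose of G669071, 1.25 at 7 µM G668684, 0.57 at 1500 nM Aza and 0.34 at 1500 nM G669043. KDM5B, an H3K4 demethylase, rose, averaging 8.81 at 5 µM DAC, against 8.12 in DMSO (0.69 ± 0.09, adjusted p = 7.9e-06). SETD2 averaged 8.16 at 1500 nM Aza, against 8.83 in DMSO (-0.67 ± 0.15, adjusted p = 0.0034). At 5 µM DAC 3 of the 7 fell and 1 rose, with a median of -0.2 log2, beside the 31.3% of all genes called.

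Among 7 proteins that bind methylated CpG sites, MBD1 rose, averaging 10.57 log2 at 5 µM DAC, against 9.71 in DMSO (0.86 ± 0.1, adjusted p = 1.3e-06 in limma). It rose by 0.87 at the higher dose of G669071, 0.82 at 7 µM G668684 and 0.52 at 1500 nM Aza. ZBTB4, a zinc finger reader, fell by 0.60 at the higher dose of G669071 and 0.53 at 1500 nM Aza. At 5 µM DAC 1 of the 7 rose and 1 fell, a share close to the 31.3% of all genes called.

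Of the TET dioxygenases, TET1 was called lower at the higher doses of DAC, G669071, G668684 and Aza. At 1500 nM Aza it was the only member called lower, but TET3 235542_at changed by a similar amount (-0.38 ± 0.14, adjusted p = 0.079 in limma). TET1 probe set 228906_at read 5.79 and 5.68 log2 at 5 µM DAC, 6.03 and 5.72 at the higher dose of G669071, 5.65 and 5.78 at 7 µM G668684, and 5.81 and 5.89 at 1500 nM Aza, against 6.06, 6.17, 6.25 and 6.48 in DMSO. These 8 arrays lay below all DMSO arrays, replicate 1 of G669071 only narrowly. The changes were -0.50 ± 0.12, -0.37 ± 0.12, -0.53 ± 0.12 and -0.39 ± 0.12, with adjusted p = 0.0037, 0.034, 0.0027 and 0.039 in limma, or 0.705, 0.776, 0.695 and 0.763 of DMSO. At 1500 nM G669043 TET1 read 5.83 and 6.08, overlapping DMSO at the upper array (-0.28 ± 0.12, adjusted p = 0.21).

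The TET1 calls rested on few arrays. That at 5 µM DAC was lost without its replicate 2 (-0.45, adjusted p = 0.064) and that at 7 µM G668684 without its replicate 1 (-0.46, adjusted p = 0.054 in limma). For G669071 the change was -0.21 (adjusted p = 0.46) without its replicate 2, and it was not called without DMSO replicate 3 (-0.36, adjusted p = 0.051) or 4 (-0.29, adjusted p = 0.094). For 1500 nM Aza the call was lost without either of its own arrays (-0.35 and -0.43, adjusted p = 0.23 and 0.14), without DMSO replicate 3 (-0.39, adjusted p = 0.065) or without DMSO replicate 4 (-0.31, adjusted p = 0.11). Against DMSO replicates 1 and 2 alone neither of these passed (-0.24 and -0.27, adjusted p = 0.17 and 0.23). At the remaining doses TET1 read between 5.92 and 6.45 log2, with no call. In the order of TET1 group means no step exceeded the pooled SD of 0.153.

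The second TET1 probe set, 214862_x_at, stayed below the filter on all 24 arrays, and its values may lie at background. It read 3.84 and 3.75 log2 at 5 µM DAC, 3.52 and 3.86 at 7 µM G668684, and 3.98 and 3.65 at 1500 nM Aza, against 4.40, 4.14, 4.22 and 4.40 in DMSO. Those arrays too lay below all DMSO arrays. With no filter on dim probe sets, the changes were -0.50, -0.60 and -0.48, with adjusted p = 0.0075, 0.0015 and 0.02 in limma, and that at the higher dose of G669071 was -0.32 (adjusted p = 0.092). The size of a fold at such low values is not settled.

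TET2 and TET3, the other dioxygenases, showed no call against DMSO on any kept probe set in the fit to all arrays. TET2 227624_at differed from DMSO by between -0.2 and 0.35 log2 and 1569385_s_at by between -0.11 and 0.09, with lowest adjusted p of 0.18 and 0.72 in limma. TET2 235461_at read between 3.44 and 3.87 on all arrays, below the filter. For TET3, 235542_at differed by between -0.38 and 0.28 and 214754_at by between -0.16 and 0.28, with lowest adjusted p of 0.079 and 0.23. TET3 1554641_a_at was lower than DMSO in all 10 groups, by between -0.24 and -0.09, and its lowest adjusted p was 0.072. Without DMSO replicate 3, TET3 1554641_a_at passed at 5 µM DAC (-0.27, adjusted p = 0.033), the higher dose of G669071 (-0.28, adjusted p = 0.029) and 7 µM G668684 (-0.27, adjusted p = 0.033), and at that dose of G669071 also without DMSO replicate 4 (-0.27, adjusted p = 0.049). Without DMSO replicate 2, TET3 235542_at passed at 7 µM G668684 (-0.41, adjusted p = 0.023) and 1500 nM Aza (-0.49, adjusted p = 0.014), and without 120 nM DAC replicate 2 TET3 214754_at passed at 120 nM DAC (0.39, adjusted p = 0.03). Against DMSO replicates 1 and 2 alone, TET2 227624_at passed at the higher dose of G669071 (0.52, adjusted p = 0.045) and TET3 235542_at at 150 nM G669043 (0.44, adjusted p = 0.039). Against the same pair TET3 1554641_a_at passed in 5 groups: 5 µM DAC, higher and lower G669071, 7 µM G668684 and 150 nM G669043 (-0.35, -0.36, -0.33, -0.35 and -0.37, adjusted p = 0.0071, 0.0065, 0.025, 0.0073 and 0.011). Against DMSO replicates 3 and 4 alone TET3 235542_at passed, on the other side of DMSO, at 7 µM G668684 and 1500 nM Aza (-0.47 and -0.54, adjusted p = 0.015 and 0.0076).

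Of 7 genes that supply or assist TET enzymes, 5 fell at each of the higher doses of DAC, G669071 and G668684. OGT, the sugar transferase that binds TET proteins, averaged 8.71 log2 at 5 µM DAC, against 9.24 in DMSO (-0.53 ± 0.1, adjusted p = 0.00024 in limma). IDH1, which makes the TET co-substrate 2-oxoglutarate, averaged 11.49 at 5 µM DAC and 11.22 at 1500 nM Aza, against 11.88 in DMSO (-0.40 ± 0.07 and -0.67 ± 0.07, adjusted p = 0.00016 and 1.8e-06). At those doses 0 rose, with medians of -0.3, -0.31 and -0.29 log2, beside 31.3%, 28.8% and 31.3% of all genes called. Elsewhere 4 of 7 fell at 150 nM G668684 (20.3% of all genes), 3 at 1500 nM Aza (16.4%), and 1 each at 120 nM DAC (21.7%) and lower G669071 (14.5%). At 150 nM Aza (1.22%) and at 1500 and 150 nM G669043 (8.14% and 0.371%) 0 of the 7 were called in limma, and 0, 2 and 5 had an unadjusted p under 0.05.

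Of 13 genes for the repair of oxidised cytosine, 6 fell and 3 rose at 5 µM DAC. NEIL3, a DNA glycosylase, fell by 0.85, the repair scaffold XRCC1 by 0.59 and the uracil glycosylase UNG by 0.54, while POLB, the gap-filling polymerase, rose by 0.57 ± 0.06 (adjusted p = 1.3e-07 in limma). Of 13 genes of methyl donor supply 5 fell and 2 rose at 5 µM DAC: the folate enzyme MTHFD1 fell by 0.70, methionine synthase MTR by 0.76 and MAT2A, which makes S-adenosylmethionine, by 0.51. The list medians were -0.2 and -0.12, with 31.3% of all genes called.

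Dose was compared within each compound. UHRF1 and DNMT3B were lower at the higher dose of DAC, G669071 and G668684, and DNMT1 at that of DAC and G668684. For UHRF1 the higher minus lower differences were -0.50 ± 0.13, -0.47 ± 0.13 and -0.53 ± 0.13 log2 (adjusted p = 0.017, 0.039 and 0.015 in limma). For DNMT3B they were larger, -0.82 ± 0.17, -0.58 ± 0.17 and -0.66 ± 0.17 (adjusted p = 0.0027, 0.047 and 0.017). DNMT1 differed by -0.59 ± 0.11 for DAC and -0.43 ± 0.11 for G668684 (adjusted p = 0.00091 and 0.014), and DNMT3A 222640_at by -0.31 ± 0.1 for DAC (adjusted p = 0.041). These made 4 of 13 for DAC (11.4% of all probe sets called), 2 of 13 for G669071 (6.5%) and 3 of 13 for G668684 (8.52%).

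With Aza and G669043 the dose moved only DNMT3A 244428_at, by 0.33 ± 0.09 and 0.42 ± 0.09 (adjusted p = 0.045 and 0.017 in limma), which is 1 of 13 for each, beside 4.27% and 2.7% of all probe sets. TET1 was lower at the higher dose by -0.42 (DAC), -0.41 (G668684), -0.36 (Aza) and -0.38 (G669043) and passed in none (adjusted p = 0.062, 0.089, 0.19 and 0.19).

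The dose differences depended on single arrays more than those from DMSO. Leaving out any 1 of its 4 arrays ended both G669071 calls, the DNMT3A 244428_at calls of Aza and G669043 and the DNMT3B call of G668684 (adjusted p of 0.065 to 0.3 in limma). DNMT1 with G668684 was lost without 7 µM replicate 1 (-0.23, adjusted p = 0.29) or either 150 nM array (-0.46 and -0.40, adjusted p = 0.068 and 0.081). UHRF1 with G668684 was lost without 7 µM replicate 1 (-0.41, adjusted p = 0.18) or 150 nM replicate 2 (-0.41, adjusted p = 0.13). For DAC, UHRF1 was lost without either 5 µM array (-0.44 and -0.57, adjusted p = 0.15 and 0.054) or 120 nM replicate 2 (-0.35, adjusted p = 0.13). DNMT3B was lost without 5 µM replicate 2 (-0.52, adjusted p = 0.1), and DNMT3A 222640_at without either 5 µM array or 120 nM replicate 1 (-0.29, -0.34 and -0.20, adjusted p = 0.2, 0.13 and 0.42). Without 120 nM replicate 2, TET1 and TET3 214754_at passed (-0.56 and -0.55, adjusted p = 0.03 and 0.0088). DNMT1 with DAC kept its call without any 1 array.

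**Figure D4:**
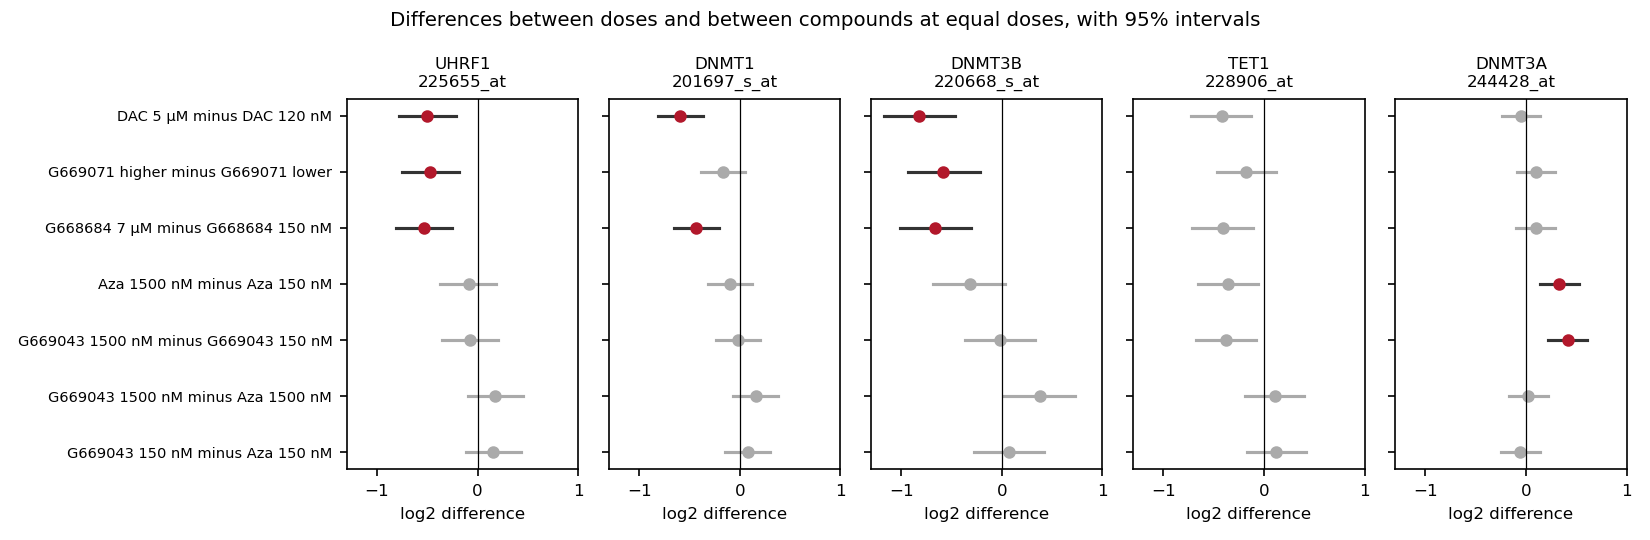
Log2 differences with 95% intervals from limma (x axis) for 5 probe sets, for the higher minus the lower dose of each compound and for G669043 minus Aza at equal doses (y axis), red where the adjusted p was under 0.05. UHRF1 and DNMT3B are red for DAC, G669071 and G668684, DNMT3A 244428_at for Aza and G669043, and neither equal-dose row is red.

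G669043 and Aza were given at equal nominal doses, which allowed 2 pairs to be compared. At 1500 nM 0 of the 13 probe sets passed, beside 1.25% of all probe sets, and 3 of the 13 had an unadjusted p under 0.05 in limma. At 150 nM 0 of 13 passed, beside 0.0341%, and 0 had an unadjusted p under 0.05. G669043 minus Aza at 1500 nM was 0.17 for UHRF1 (95% interval -0.10 to 0.45), 0.16 for DNMT1 (-0.07 to 0.38), 0.11 for TET1 228906_at (-0.19 to 0.40) and 0.02 for DNMT3A 244428_at (-0.17 to 0.22). The widest gaps were TET2 227624_at, 7.26 and 7.40 with G669043 and 6.94 and 6.72 with Aza (0.50, interval 0.07 to 0.93, adjusted p = 0.27), and TET3 235542_at, 8.61 and 8.89 with G669043 and 8.36 and 8.15 with Aza (0.49, interval 0.15 to 0.84, adjusted p = 0.15). DNMT3B differed by 0.38 (interval 0.02 to 0.73, adjusted p = 0.32). In size, whatever the sign, the intervals of DNMT1, TET1 and DNMT3B reach the smallest change called for that gene elsewhere. Those of UHRF1 and DNMT3A 244428_at end short of it. Fitted on those 4 arrays alone, TET2 227624_at and TET3 235542_at passed (adjusted p = 0.033 and 0.042). The test of the dose effect between the 2 compounds passed for 0 of 13 in limma (beside 0.279% of all probe sets, and 0 at an unadjusted p under 0.05).

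Group means of DNMT1, UHRF1, DNMT3B and TET1 ran alike over the 11 groups. Pearson's r over these 11 means was 0.93 for DNMT1 with UHRF1, 0.91 for DNMT1 with DNMT3B, 0.87 for DNMT3B with UHRF1, and 0.84, 0.8 and 0.75 for TET1 with DNMT1, DNMT3B and UHRF1. For TET1 with DNMT3A 244428_at it was -0.67. The points share arrays and cells, so these values are descriptions.

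Over the lead probe sets of all other 18054 genes, the pattern most like UHRF1 was that of MCM2, a subunit of the replicative helicase (r = 0.994), followed by TICRR, CCNB2, ZBTB24 and LMNB1 (0.992 to 0.989). For DNMT1 the most alike were SET (0.981), ROR2, USP1, P3H3 and BUB1 (0.98 to 0.976). For DNMT3B they were PHF13 (0.974), ARL6IP4, CDC25B, KLF2 and CDCA2 (0.973 to 0.971), and for TET1 RBM39 (0.975), ATF4, DCP1A, CPT2 and SLC7A11 (0.973 to 0.97). Many genes share such a pattern over 11 points.

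**Figure D5:**
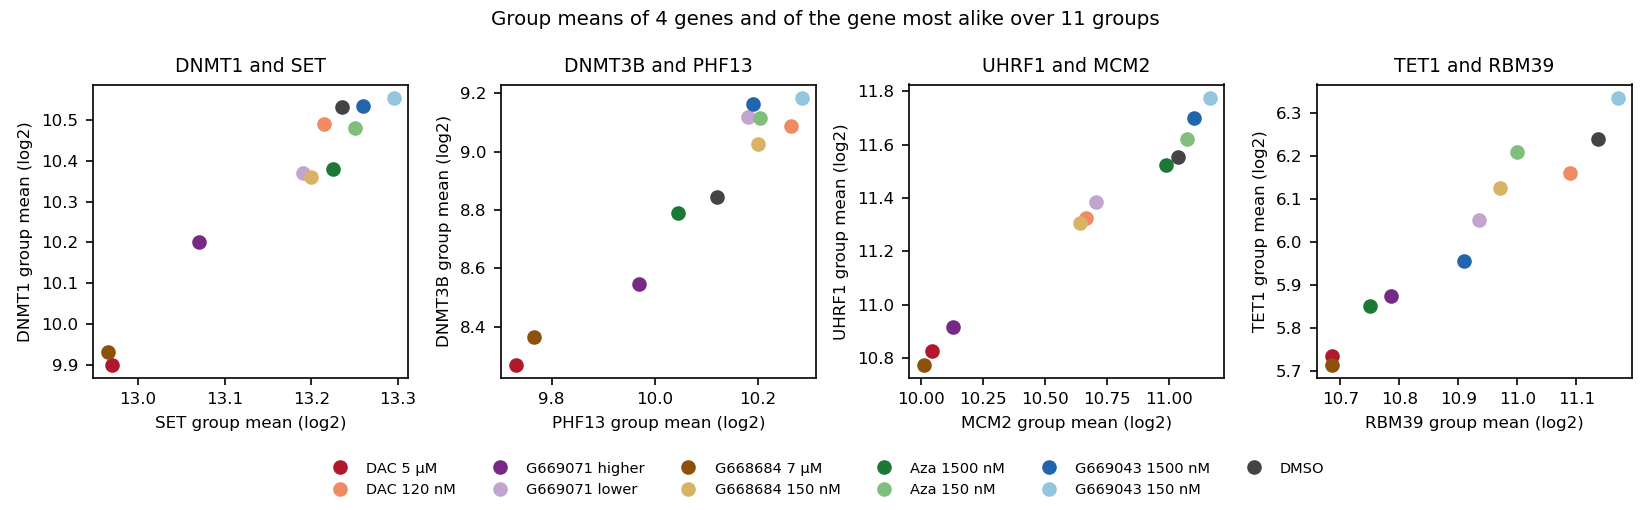
Group means on the log2 scale of DNMT1, DNMT3B, UHRF1 and TET1 (y axes) against those of the gene most alike over 11 groups (x axes: SET, PHF13, MCM2 and RBM39), 1 point a group. UHRF1 and MCM2 follow 1 line (r = 0.994), with the higher doses of DAC, G669071 and G668684 at its low end.

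Genes of DNA replication and S phase, among which UHRF1 and DNMT1 are usually counted, moved in the same groups. Of 35 tested, 33 fell at 5 µM DAC (31.3% of all genes called), 30 at the higher dose of G669071 (28.8%) and 33 at 7 µM G668684 (31.3%), with 0 higher and medians of -0.75, -0.71 and -0.72 log2. CDT1, which licenses replication origins, averaged 9.61 at 5 µM DAC, against 10.93 in DMSO (-1.33 ± 0.1, adjusted p = 3.3e-09 in limma). PRIM1, the primase subunit, averaged 10.21, against 11.53 in DMSO (-1.32 ± 0.06, adjusted p = 3.7e-12). At 120 nM DAC 24 fell (21.7%), at the lower dose of G669071 20 (14.5%) and at 150 nM G668684 24 (20.3%), with medians of -0.35, -0.31 and -0.37. At 1500 nM Aza 4 rose and 4 fell (16.4%), at 1500 nM G669043 3 fell (8.14%), and at 150 nM of either 0 were called in limma, with 6 (Aza) and 14 (G669043) at an unadjusted p under 0.05. The motif shown above stood in windows of 16 of 31 of these genes (51.6%) and of 5 of 11 maintenance partners (45.5%). Whether a change in the share of cells in S phase moved with UHRF1 and DNMT1 was not tested.

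Alongside, 5 germ line genes known to be silenced by promoter methylation were read, a list chosen with earlier results of these data known. All 5 rose in 8 of the 10 treated groups, with median changes of 5.68 log2 at 5 µM DAC, 6.25 at 120 nM DAC, 6.3 at the higher and 4.92 at the lower dose of G669071, and 5.67 and 5.95 at 7 µM and 150 nM G668684. The medians were 4.49 at 1500 nM Aza and 4.88 at 1500 nM G669043. Of all genes, 31.3% and 21.7% were called at 5 µM and 120 nM DAC, 28.8% and 14.5% at the higher and lower dose of G669071, 31.3% and 20.3% at 7 µM and 150 nM G668684, 16.4% at 1500 nM Aza and 8.14% at 1500 nM G669043. At 150 nM Aza 2 of 5 rose (median 0.25, 1.22% of all genes called), and at 150 nM G669043 0 were called in limma (median 0.03, 0.371% of all genes, and 0 at an unadjusted p under 0.05). DNMT3A 244428_at was called in the same 8 groups, while UHRF1 and DNMT1 were called in 3 of them. The match depends on the threshold, as 244428_at lay above all DMSO arrays at 150 nM Aza and, narrowly, at 150 nM G669043 too. The lowest DMSO mean in this list was 4.23 log2, below the filter value of 5. Chosen with these data known, the list gives no independent support. TKTL1, from this list, averaged 12.25 at 5 µM DAC and 12.84 at 150 nM G668684, against 5.24 in DMSO, and at 150 nM G668684 neither UHRF1 nor DNMT1 was called.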

How the data were processed

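RNA from HCT116 cells was hybridised to 24 Affymetrix HG-U133 Plus 2.0 arrays in 11 groups. Per the submitters' processing notes, RMA in Expression Console 1.1 of Affymetrix gave the values. They were deposited as intensity on a linear scale, and the log2 of the deposited values, taken here, falls on steps of 0.01. RMA sets all arrays to the same distribution, so a shift of all mRNA together cannot be seen. The table holds no detection calls, the number of arrays limits the precision, and no genome build was given in the sources used here. A single gene symbol was given for 41091 probe sets and several for 1801, while 62 were control probe sets and 11721 lacked an entry in the annotation. The filter of 5 log2 on 2 or more arrays left 35146 probe sets of 18055 genes.

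All arrays entered 1 limma fit (limma 3.58.1, R 4.3.3) with a coefficient for each group (lmFit, then eBayes with an intensity trend; 13 residual and 6.66 prior degrees of freedom), with Benjamini-Hochberg adjustment within each of 18 contrasts. Every adjusted p in the text is from limma. Tests are 2-sided, errors of differences are SEs and errors of levels SDs. The 95% intervals of the 13 probe sets reached, in the median, 0.23 log2 to either side for DMSO contrasts and 0.27 for those among treated groups. The fit was also run on simulated data with independent noise on every array. Those data held no split of the DMSO arrays and no link between replicates, so they cannot show how the fit deals with either.

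A gene's lead probe set is its kept one with the highest mean over all arrays. The text names all probe sets of the 8 genes, up to 4 called genes with the largest change per list and comparison against DMSO, and the 5 genes most alike to each of the 8 whose lead probe set was called against DMSO. Values of the list genes so named are also given in other comparisons, and markers of epithelium, fibroblasts, blood and keratinocytes were read for the check of the cells. PCNA and UNG are each in 2 lists. Genes and lists were chosen with earlier results of these data known. Alternatives were other normalizations, filters, variance models and sets of arrays. Python 3.11.15, pandas 2.3.3 and matplotlib 3.10.9 made tables and figures.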

Additional observations from a re-analysis of the deposited data

How the results depend on the processing

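Of 31 called differences of member probe sets, 10 were called under every alternative run, and 0 changed sign. The 10 include UHRF1 in the higher doses of DAC, G669071 and G668684 against DMSO, DNMT1 at 5 µM DAC and 7 µM G668684, and DNMT3A 244428_at in 5 groups. Counts of called members out of 13 moved by over 1.5 times as follows. Normalizing to the same quantiles again gave 2 at 150 nM G668684, against 1 in the fit reported. Centring arrays on their medians gave 2 (DAC), 0 (G669071), 1 (G668684) and 0 (Aza) between doses, against 4, 2, 3 and 1. No filter gave 0 for the Aza doses, and no intensity trend gave 0 for the G669071 doses. Fitting only the groups compared gave 0 at 120 nM DAC, 0 at 150 nM G668684, 1 at 1500 nM Aza, 0, 4 and 4 between doses of DAC, G669071 and Aza, and 2 for G669043 against Aza at 1500 nM. DMSO replicates 1 and 2 only gave 2 at 120 nM DAC, 2 at lower G669071, 0 at 150 nM G668684, 1 at 1500 nM Aza, and 3 and 6 at 1500 and 150 nM G669043. Of all 35146 probe sets 7368, 4041, 6292, 4129, 4185 and 8193 were called there, in the same order. The fit reported called 7004, 4381, 6460, 5029, 2453 and 90. DMSO replicates 3 and 4 only gave 2 at 120 nM DAC, lower G669071 and 150 nM G668684, with 9071, 8050 and 8974 of all probe sets called.

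Without 1 replicate at a time the counts ran from 3 to 6 at 5 µM DAC, 0 to 3 at 120 nM DAC, 3 to 6 at 7 µM G668684, 0 to 1 at 150 nM G668684 and 1 to 3 at 1500 nM Aza. Between doses they ran from 1 to 5 for DAC, 0 to 2 for G668684, and were 0 throughout for G669071, Aza and G669043. A group left with 1 array was assumed to vary like the others.

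Groups share replicate numbers, and the labels do not say whether same-numbered samples belong together. Deviations of same-numbered arrays correlated from -0.38 to 0.6 over 55 pairs of groups, with a median of 0.01 and 18 of them over 0.1. Between treated groups, a fit with a term for the replicate number (the replicate block) called more probe sets in every contrast. It called 5678 against 4011 for the DAC doses, and 1426 against 441 for G669043 against Aza at 1500 nM. Whether the numbers mark a pairing was not tested. With the replicate block the counts of members were 2 at lower G669071, 0 at 150 nM G668684, 1 at 1500 nM Aza, and 4 and 6 at 1500 and 150 nM G669043. Of all 35146 probe sets, 4670 and 8763 were called at 1500 and 150 nM G669043. Treated groups have replicates 1 and 2 only, so under the block the changes from DMSO rest on DMSO replicates 1 and 2. TET1 changed by -0.24 at the higher dose of G669071 and -0.27 at 1500 nM Aza, as against that DMSO pair alone. For comparisons with DMSO the block is therefore no separate check.

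The count over all probe sets moved with the same choices, most at 150 nM G669043. It ran from 0 (only the groups compared) to 8763 (replicate block) against 90. Ranges for comparisons beyond 1.5 times were 2701 to 9071 (120 nM DAC, 7004), 1770 to 8050 (lower G669071, 4381), 6369 to 12426 (7 µM G668684, 9888), 2932 to 8974 (150 nM G668684, 6460), 2080 to 9171 (1500 nM Aza, 5029), 25 to 1620 (150 nM Aza, 333) and 461 to 4670 (1500 nM G669043, 2453). Between doses they were 826 to 5678 (DAC, 4011), 863 to 7087 (G669071, 2286), 1308 to 4294 (G668684, 2995), 431 to 4609 (Aza, 1501) and 270 to 2065 (G669043, 950), for G669043 against Aza 57 to 1515 (441) and 7 to 2794 (12), and for the difference of their dose effects 50 to 614 (98). The cause of these shifts was not tested.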
